A study of Mus musculus with 2 samples.

Results

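Serpins are a family of protease inhibitors that trap their target on an exposed reactive loop and then change shape, which destroys the protease together with the inhibitor. Mammalian serpins are divided into clades by sequence. Clade A holds secreted plasma proteins, many of them made in liver, clade B holds inhibitors that lack a classical signal peptide and mostly act inside cells, and the smaller clades hold the regulators of clotting, fibrinolysis and complement, a collagen chaperone and the neuroserpin pair. Some members, such as the hormone carriers and the chaperone, inhibit no protease. The family was examined in whole pancreata of *Mafk*-Tg and WT mouse embryos at E15.5, during the secondary transition of the embryonic pancreas, where every gene whose symbol begins with Serpin and that had a probe set naming it alone was taken. This gave 48 of the 19938 genes measured.

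In the *Mafk*-Tg line, murine MafK carrying a FLAG tag was expressed from the rat insulin I promoter, which is active in β-cells, and transgenic and WT embryos were both on an ICR background. RNA of the whole organ was read on Affymetrix mouse gene arrays, with 1 array of *Mafk*-Tg and 1 of WT here. The series description names 3 pancreata per genotype and does not say whether their RNA was pooled. Values are log2 array values as the authors normalized them, and a difference is the *Mafk*-Tg value minus the WT value. The study's cutoff of 1.2-fold, or 0.26 on the log2 scale, was used. The study's own lists at that cutoff hold fewer probe sets than the genes past it here, so the selections differ. Replicate error could not be estimated from 1 array per genotype. No test was therefore possible, every difference below is a value of 2 arrays, and fewer cells of a type cannot be told apart from less RNA per cell.

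The arrays had medians of 6.01 in *Mafk*-Tg and 6.01 in WT. The *Mafk* value differed by 0.25 on the log2 scale, or 1.19-fold, under the cutoff. *Xist*, made by female cells, had 11.30 in *Mafk*-Tg and 4.40 in WT, and the Y-linked *Eif2s3y* had 2.61 in *Mafk*-Tg and 8.29 in WT, so that embryo sex and genotype cannot be told apart. Markers of the other cell types in the organ differed between the arrays as well. The leukocyte list had a median difference of -0.56 with 12 of 14 genes at least 1.2-fold lower, the erythroid list -0.52 with 11 of 13 lower, the hepatocyte list -0.31 with 10 of 18 lower and 2 higher, and the acinar list 0.20 with 5 of 19 higher. Of all genes, 7.96% were higher and 10.5% were lower. The part of these cell types in the serpin differences was not tested.

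Most serpin genes gave a dim signal. Array values of different genes depend on their probes and do not rank the amounts of their RNA, so a level is used here only to tell bright from dim probe sets. Of the 48 members, 11 (22.9%) had a mean level reaching 6.00, the probe set median, against 57.2% of all genes. At the 1.2-fold cutoff 10 of the 48 were higher in *Mafk*-Tg and 10 lower, where over all genes 7.96% were higher and 10.5% were lower. At 1.5-fold 3 were higher, *Serpini1*, *Serpini2* and *Serpina1c*, and 2 were lower, *Serpind1* and *Serpinb9d*, of which *Serpina1c* and *Serpinb9d* had 0.01 and -0.06 when probe sets naming several genes were averaged in, where over all genes 0.697% were higher and 1.27% were lower. The median difference of the family was -0.06, beside -0.01 over all genes, and that of its 11 brighter members was 0.04. Most of the members past the cutoff were dim. Among the 37 members below the median level 8 were higher (21.6%) and 9 were lower (24.3%), and of all genes at such levels 11.1% were higher and 16.6% were lower. Among the 29 members with a mean level under 5, a limit set with the values in view, 6 were higher and 8 were lower, against 12.2% and 19.4% of all genes there. Among the 11 brighter members 2 were higher, *Serpini1* and *Serpini2*, and 1 was lower, *Serpinb6b*, where 5.58% of all genes at such levels were higher and 5.87% were lower.

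**Figure D1:**
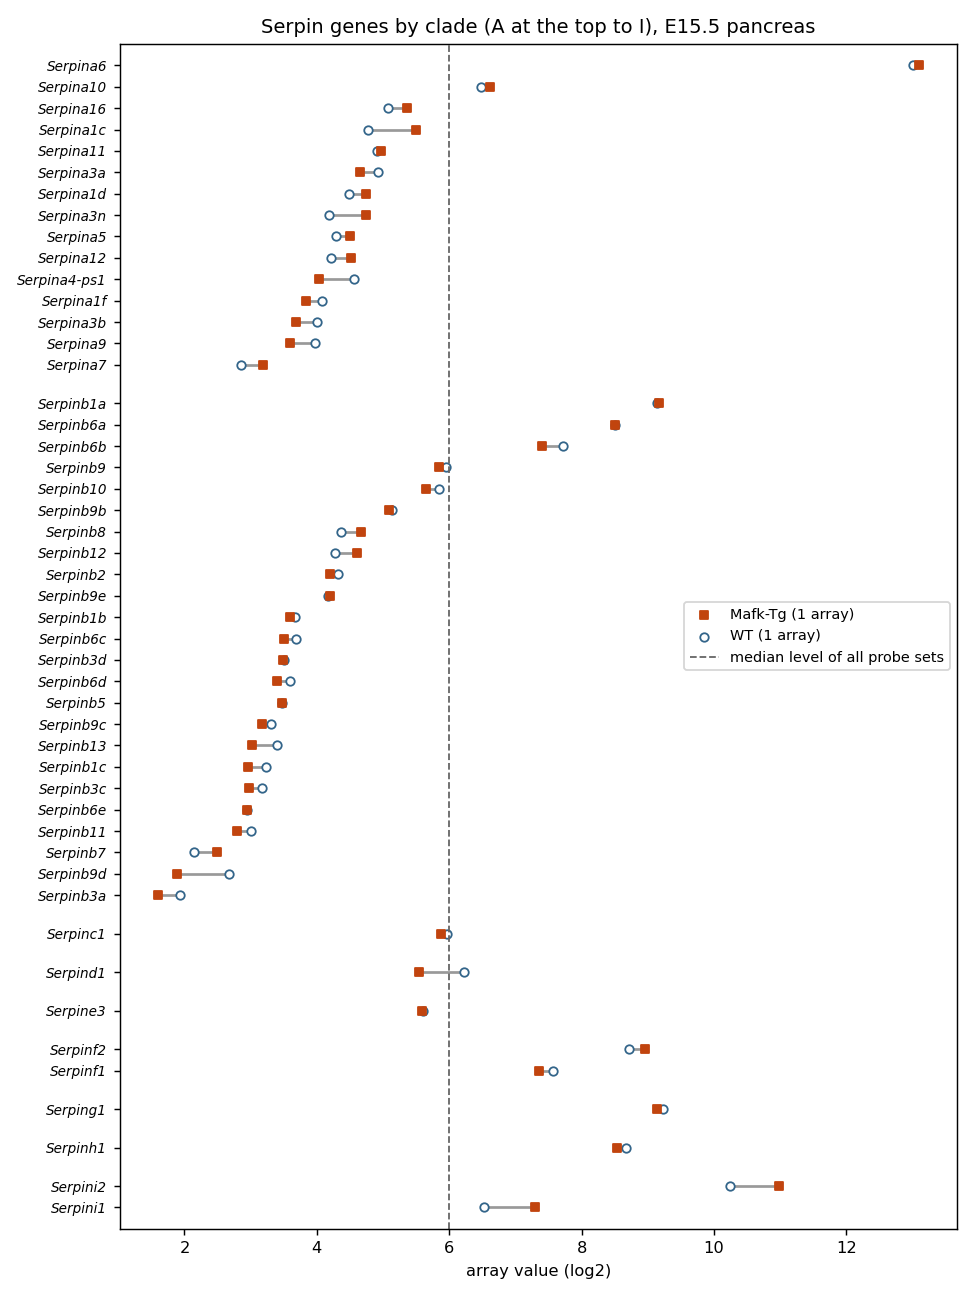
Log2 array value of each of the 48 serpin genes in *Mafk*-Tg (squares) and WT (circles), 1 array each, grouped from clade A at the top to clade I at the bottom, with a dashed line at the median level of all probe sets. The 2 genes of clade I lie to the right in *Mafk*-Tg, while *Serpina6* at the far right has nearly the same value in both arrays.

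Clade I had the largest differences among the 11 brighter members. *Serpini2*, which encodes pancpin, a serpin of the exocrine pancreas, had a log2 value of 10.98 in *Mafk*-Tg and 10.24 in WT, a difference of 0.73 or 1.66-fold. *Serpini1*, which encodes neuroserpin, an inhibitor of tissue plasminogen activator made by neurons, had 7.29 in *Mafk*-Tg and 6.53 in WT, a difference of 0.76 or 1.69-fold. The *Mafk*-Tg array was the higher one for both. Among the 11412 genes at or above the median level, *Serpini1* was the gene with rank 9 from the highest difference and *Serpini2* the one with rank 10. The robust SD of the difference over genes of similar level was 0.17 for *Serpini1* and 0.13 for *Serpini2*, which describes these 2 arrays and is not an error between animals.

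The genes of the same cell types did not all have values of this size. For the counts below, 7.96% of all genes were higher and 10.5% were lower. Of 19 acinar genes, whose cells also make *Serpini2*, the granule protein gene *Zg16* had 0.71, the carboxypeptidase gene *Cpb1* 0.54 and *Bhlha15*, which encodes a factor of secretory maturation, 0.42. *Ctrl*, a gene of the chymotrypsin family, had -0.20, the elastase gene *Cela2a* -0.06 and the zymogen granule gene *Gp2* -0.01. *Cpa1* and *Clps* had 0.03 and 0.04 and lie close to the highest array value, which can mask a difference. Of the 19 acinar genes, 16 had a difference above 0 and 3 below. The median of the acinar list was 0.20, with median levels of 9.91 in *Mafk*-Tg and 9.71 in WT. For *Serpini1*, 16 genes of neurons and glia had a median of 0.11, with 3 higher and 0 lower, and median levels of 6.24 in *Mafk*-Tg and 6.12 in WT. Of these 16 genes, 12 had a difference above 0 and 4 below. *Ret* had 0.40, *Gap43* 0.33 and *Snap25* 0.32. The 4 below 0 were *Elavl3* at -0.18, *Fabp7* at -0.14, *Tubb3* at -0.05 and *Nefl* at -0.05. Endocrine cells also carry regulated secretory granules, and their 14 genes had a median of 0.26, with 7 higher, among them *Chgb* at 0.73, and 2 lower, *Ins2* at -0.40 and *Chga* at -0.32.

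*Serpini2* and *Serpini1* are neighbours on mouse chromosome 3, with 2 protein-coding genes between them. *Pdcd10*, next to *Serpini1*, had 7.01 in *Mafk*-Tg and 6.85 in WT, a difference of 0.16, and *Wdr49* has no gene value here. On the far side of *Serpini1*, *Golim4* had -0.07. On the far side of *Serpini2*, *Zbbx* had -0.25 at a low level, and *Bche*, a cholinesterase gene, had 7.25 in *Mafk*-Tg and 6.82 in WT, a difference of 0.43. The measured genes beside the pair thus had differences of both signs. A cause shared by the region was not tested.

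Among the members past the cutoff, 3 had a gene value that did not rest on a dim probe set. The 250 bases before the start of each are shown. They are RefSeq sequences of GRCm38.p6, written 5′ to 3′ on the strand of the gene, with matches in capitals. The searched letters were TGCTGA, the half-site bound by MAF proteins, CACCTG, an E-box of the kind bound by the acinar factor PTF1, TGGGAA, the core bound by RBPJ proteins, and TATAA, the TATA box core, each on both strands and none overlapping another in these windows. *Serpini2* is at chr3:75270079-75270328 on the minus strand, *Serpini1* at chr3:75557243-75557492 on the plus strand and *Serpinb6b* at chr13:32965011-32965260 on the plus strand.
Serpini2: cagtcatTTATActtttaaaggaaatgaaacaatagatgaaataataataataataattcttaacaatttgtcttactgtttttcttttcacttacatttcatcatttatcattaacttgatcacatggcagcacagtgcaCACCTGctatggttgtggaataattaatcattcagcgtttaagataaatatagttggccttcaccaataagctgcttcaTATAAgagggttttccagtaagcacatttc
Serpini1: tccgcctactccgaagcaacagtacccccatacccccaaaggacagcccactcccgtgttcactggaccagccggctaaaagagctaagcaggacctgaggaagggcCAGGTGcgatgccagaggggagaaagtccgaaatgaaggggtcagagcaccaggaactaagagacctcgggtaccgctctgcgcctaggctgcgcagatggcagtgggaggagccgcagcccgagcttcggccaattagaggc
Serpinb6b: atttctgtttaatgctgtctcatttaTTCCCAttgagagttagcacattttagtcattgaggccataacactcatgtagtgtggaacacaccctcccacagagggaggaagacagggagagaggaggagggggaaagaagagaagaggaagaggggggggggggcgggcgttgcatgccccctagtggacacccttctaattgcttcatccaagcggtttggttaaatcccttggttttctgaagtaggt

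The *Serpini2* window had a GC content of 30.4% and the *Serpini1* window one of 61.2%, with 49.6% for *Serpinb6b* and a median of 52.4% over all promoters. In *Serpini2*, TATAA lies 30 to 26 bases before the start, with a further match on the other strand at 243 to 239, and CACCTG lies 109 to 104 bases before it. In *Serpini1*, the E-box letters were found on the other strand, 143 to 138 bases before the start. In *Serpinb6b*, the RBPJ letters were found on the other strand, 224 to 219 bases before the start. TGCTGA was in none of the 3 windows. Over 32851 promoter windows of the same length, 16.1% held TGCTGA, 17.2% CACCTG, 21.6% TGGGAA and 22.8% TATAA. The 49 windows of 41 members held them in 12, 14, 10 and 17 windows. A match describes the letters only and says nothing of binding.

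**Figure D2:**
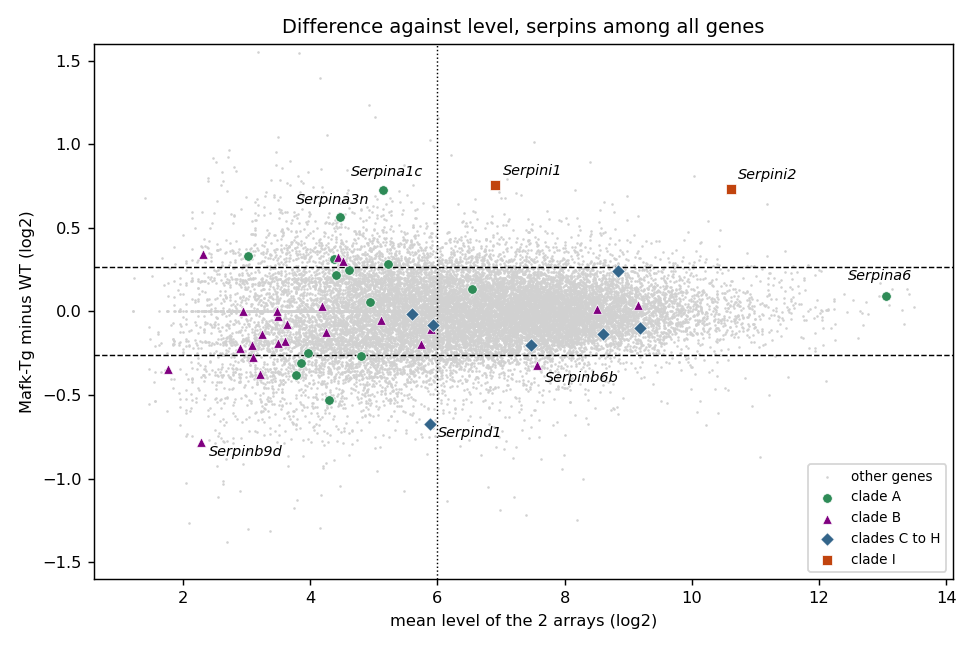
Log2 difference, *Mafk*-Tg minus WT, against the mean level of the 2 arrays for the serpins (coloured by clade) and all other genes within the axis (grey), with dashed lines at 1.2-fold and a dotted line at the median level. The squares of clade I lie above the cloud of genes of their level, and most other serpins past 1.2-fold lie left of the dotted line, where the cloud is wide.

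Clade A held 1 gene with a very strong signal. *Serpina6*, which encodes corticosteroid-binding globulin, the carrier of glucocorticoids, had a log2 value of 13.10 in *Mafk*-Tg and 13.01 in WT, a difference of 0.09. It lay at percentile 99.96 of all genes in both arrays, close to the highest array value of 14.01, which can mask a difference. The hepatocyte list had a median of -0.31. Of its 18 genes, 13 lay below 0, such as *Alb* at -0.57, and 5 above, such as *Rbp4* at 0.55. The paper also reports *Rbp4* as upregulated by qRT-PCR, among candidates chosen for a possible role in endocrine development. Only 1 further clade A gene reached the median level. *Serpina10*, which encodes the protein Z-dependent inhibitor of activated clotting factor X, had 6.61 in *Mafk*-Tg and 6.48 in WT, a difference of 0.13.

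The other 13 members of the clade were dim, and they differed in both directions. Over all 15 members of clade A, 5 were higher, 4 were lower and 6 were under the cutoff, with a median of 0.13. Of all genes below the median level, where 13 of the 15 lie, 11.1% were higher and 16.6% were lower. The median was -0.07 when probe sets with several symbols were added. Among those higher, *Serpina3n*, an acute-phase inhibitor of granule proteases, had 4.75 in *Mafk*-Tg and 4.19 in WT, a difference of 0.56. *Serpina12*, the gene of the adipokine vaspin, had 0.32, *Serpina16* had 0.28, and *Serpina7*, which encodes thyroxine-binding globulin and is X-linked, had 0.33 with values of 3.18 in *Mafk*-Tg and 2.86 in WT. Among those lower were the pseudogene *Serpina4-ps1* at -0.53, *Serpina9* at -0.38, *Serpina3b* at -0.31 and *Serpina3a* at -0.27, the last of which was under the cutoff after loess, at -0.24. *Serpina5*, the protein C inhibitor gene, had 0.22, *Serpina11* 0.06 and *Serpina1f* -0.25.

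The α1-antitrypsin genes, which encode the main plasma inhibitor of neutrophil elastase and form a group of near-identical copies in the mouse, gave values of opposite sign. The probe set that names *Serpina1c* alone had 5.50 in *Mafk*-Tg and 4.78 in WT, a difference of 0.73 or 1.66-fold, and the one that names *Serpina1d* alone had 4.74 in *Mafk*-Tg and 4.49 in WT, a difference of 0.25. Both lay below the median level. The 2 probe sets that name all 5 copies, *Serpina1a* to *Serpina1e*, were brighter and lower in *Mafk*-Tg. The first had 6.07 in *Mafk*-Tg and 6.35 in WT, a difference of -0.28, and the second had 7.61 in *Mafk*-Tg and 8.02 in WT, a difference of -0.42. When these probe sets were averaged in, the difference of *Serpina1c* was 0.01 and that of *Serpina1d* -0.15. Signal of 1 copy on the probes of another cannot be told apart here, so the direction of a single copy is uncertain. The hepatocyte list, at -0.31, ran the same way as the shared probe sets, with *Apob* at -0.94, *Trf* at -0.59 and *Apoa1* at -0.59, while *Rbp4* had 0.55 and *Ttr* 0.27.

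**Figure D3:**
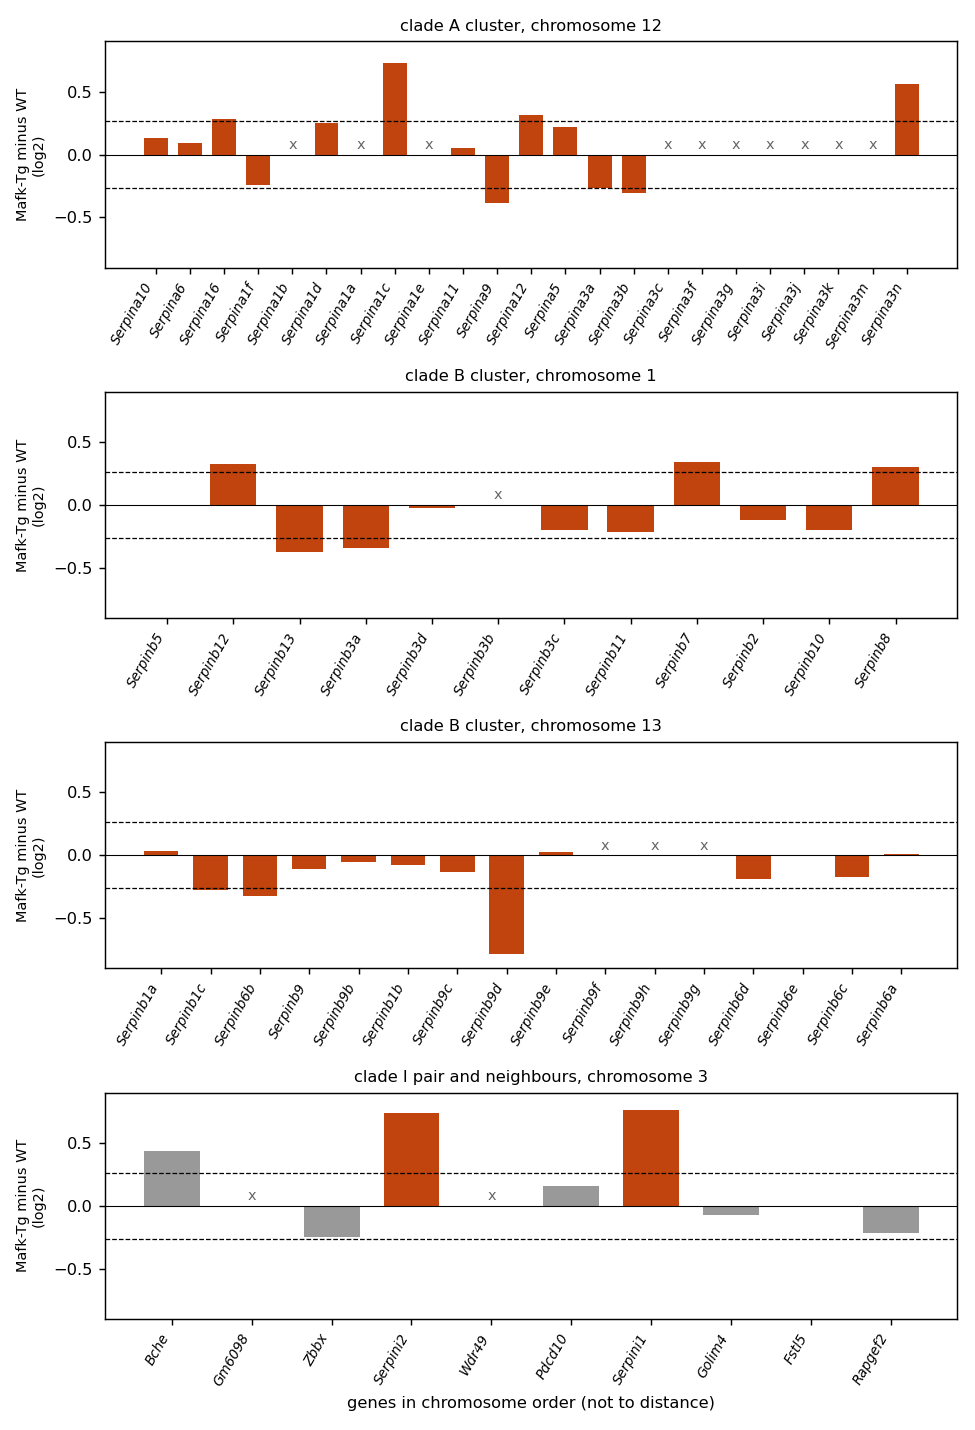
Bars give the *Mafk*-Tg minus WT difference (log2) of genes in chromosome order in the clade A cluster, both clade B clusters and the region of the clade I pair (serpins in colour, other genes in grey, x for a gene without a value here), with dashed lines at 1.2-fold. In the clade A cluster bars of both signs are mixed, while on chromosome 3 the bars of *Serpini2* and *Serpini1* stand above that of *Pdcd10* between them.

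Clade B held 24 members, 3 of which lay at or above the median level. *Serpinb1a*, the gene of the leukocyte elastase inhibitor, had 9.17 in *Mafk*-Tg and 9.13 in WT, a difference of 0.04. *Serpinb6a*, whose human counterpart inhibits trypsin-like proteases and cathepsin G, had 8.51 in *Mafk*-Tg and 8.50 in WT, a difference of 0.01. Both genes had nearly the same value in the 2 arrays. Their paralogue *Serpinb6b* had 7.40 in *Mafk*-Tg and 7.72 in WT, a difference of -0.32 or 1.25-fold, and 379 of the 11412 brighter genes had a difference as low or lower. It was the only one of the brighter members past the cutoff downwards. The 2 brighter probe sets shared by the *Serpina1* copies, which entered no gene value, were lower as well, at -0.28 and -0.42.

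Most genes of the granule proteases of white blood cells, among them targets of these inhibitors, were lower, where 10.5% of all genes were. Of 14 genes of neutrophil, mast cell and cytotoxic granules, of which *Mpo* encodes a peroxidase, 12 were at least 1.2-fold lower and 0 higher, with a median of -0.52, while *Prss57* had -0.22 and *Tpsab1* -0.02. *Ctsg*, the cathepsin G gene, had 7.57 in *Mafk*-Tg and 8.82 in WT, a difference of -1.25, *Elane*, the neutrophil elastase gene, had -0.88, *Prtn3*, the proteinase 3 gene, had -0.63, and the basophil protease gene *Mcpt8* had -0.75. The leukocyte list, which shares *Mpo* with these genes, had -0.56, with median levels of 7.61 in *Mafk*-Tg and 8.12 in WT. *Serpinb6b* at -0.32 ran with these lists, and *Serpinb1a* and *Serpinb6a* at 0.04 and 0.01 did not. *Serpinb9*, which encodes a granzyme B inhibitor, had 5.85 in *Mafk*-Tg and 5.96 in WT, a difference of -0.11, and *Serpinb10*, known in human from blood cell progenitors, had 5.65 in *Mafk*-Tg and 5.84 in WT, a difference of -0.20.

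The remaining clade B genes are best known from skin and other squamous epithelia, from placenta or as recent mouse duplicates, and they lay low on both arrays. Over all 24 members 3 were higher, 5 were lower and 16 were under the cutoff, with a median of -0.11, and the 3 brighter members had a median of 0.01. Of all genes below the median level, where 21 of the 24 lie, 11.1% were higher and 16.6% were lower. *Serpinb7*, *Serpinb12* and *Serpinb8* had 0.34, 0.32 and 0.30. *Serpinb9d* had -0.78, *Serpinb13* -0.38, *Serpinb3a* -0.34 and *Serpinb1c* -0.27. *Serpinb9d* had log2 values of 1.89 in *Mafk*-Tg and 2.67 in WT, among the lowest of all genes, and a difference of -0.06 when the probe sets it shares with other genes were averaged in. *Serpinb1c* was under the cutoff after quantile normalization, at -0.24, and after loess, at -0.23. *Serpinb5*, the maspin gene, and *Serpinb6e* had exactly the same value in both arrays, as did 3.29% of all probe sets. The others, *Serpinb1b*, *Serpinb2*, *Serpinb3c*, *Serpinb3d*, *Serpinb6c*, *Serpinb6d*, *Serpinb9b*, *Serpinb9c*, *Serpinb9e* and *Serpinb11*, had differences between -0.22 and 0.03.

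Clade B lies in a cluster on chromosome 1 and another on chromosome 13, and in the gene table no protein-coding gene other than serpins lies within either. On chromosome 1, 3 of 11 measured members were higher and 2 were lower, with a median of -0.12. On chromosome 13, 0 of 13 were higher and 3 were lower, with a median of -0.11. The clade A cluster on chromosome 12 had 4 higher and 3 lower of 13 measured, with a median of 0.13. Most members of the 3 clusters were dim, where 11.1% of all genes were higher and 16.6% lower.

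The clotting and fibrinolysis serpins differed among themselves. *Serpind1*, the gene of heparin cofactor II, a thrombin inhibitor of plasma, had 5.55 in *Mafk*-Tg and 6.22 in WT, a difference of -0.67 or 1.59-fold, with a mean level just below the median. *Serpinc1*, the antithrombin gene, had 5.88 in *Mafk*-Tg and 5.97 in WT, a difference of -0.08. *Serpinf2*, the gene of α2-antiplasmin, which inhibits plasmin, had 8.96 in *Mafk*-Tg and 8.72 in WT, a difference of 0.24, under the cutoff. The liver is the main source of the 3 plasma proteins in the adult, and the hepatocyte list had a median of -0.31 with median levels of 6.80 in *Mafk*-Tg and 7.30 in WT. *Serpind1* ran with that list and *Serpinf2* did not, while *Serpinc1*, at -0.08, was nearly the same in both arrays.

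Their targets and the genes of plasminogen activation had a median of 0.01. Of 16 measured, 0 were higher and 3 were lower, *Plg*, the plasminogen gene, at -0.33, *Plau*, the urokinase gene, at -0.31 and the clotting factor gene *F7* at -0.28, all 3 below the median level. Over all genes 7.96% were higher and 10.5% were lower, and below the median level 16.6% were lower. *Plat*, which encodes tissue plasminogen activator, the target of neuroserpin, had 7.38 in *Mafk*-Tg and 7.17 in WT, a difference of 0.21. The thrombin gene *F2* had -0.18.

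The serpins of stroma and matrix were under the cutoff. *Serpinh1*, which encodes the collagen chaperone HSP47 of the endoplasmic reticulum, had 8.53 in *Mafk*-Tg and 8.67 in WT, a difference of -0.14. *Serpinf1*, the gene of the secreted antiangiogenic factor PEDF, had 7.36 in *Mafk*-Tg and 7.56 in WT, a difference of -0.20. *Serping1*, the gene of the complement C1 inhibitor, had 9.13 in *Mafk*-Tg and 9.23 in WT, a difference of -0.10. All 3 were slightly lower in *Mafk*-Tg, where the robust SD over genes of similar level was 0.13 for *Serpinh1*, 0.15 for *Serpinf1* and 0.13 for *Serping1*. *Serpine3*, the only clade E gene measured, had 5.59 in *Mafk*-Tg and 5.61 in WT, a difference of -0.02.

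Mesenchyme genes had differences of like size. Of 16 measured, 0 were higher and 2 were lower, *Myl9* at -0.43 and *Pdgfrb* at -0.35, with a median of -0.10 and median levels of 9.45 in *Mafk*-Tg and 9.61 in WT. *Col1a1* and *Col1a2*, whose products HSP47 binds, had -0.10 and -0.11. The 17 measured genes of procollagen folding and export had a median of 0.03, with 0 higher and 1 lower, the prolyl hydroxylase gene *P3h2* at -0.36. Endothelial genes had a median of -0.09, with 1 of 12 lower, and mesothelial genes -0.00, with 0 of 8 past the cutoff.

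**Figure D4:**
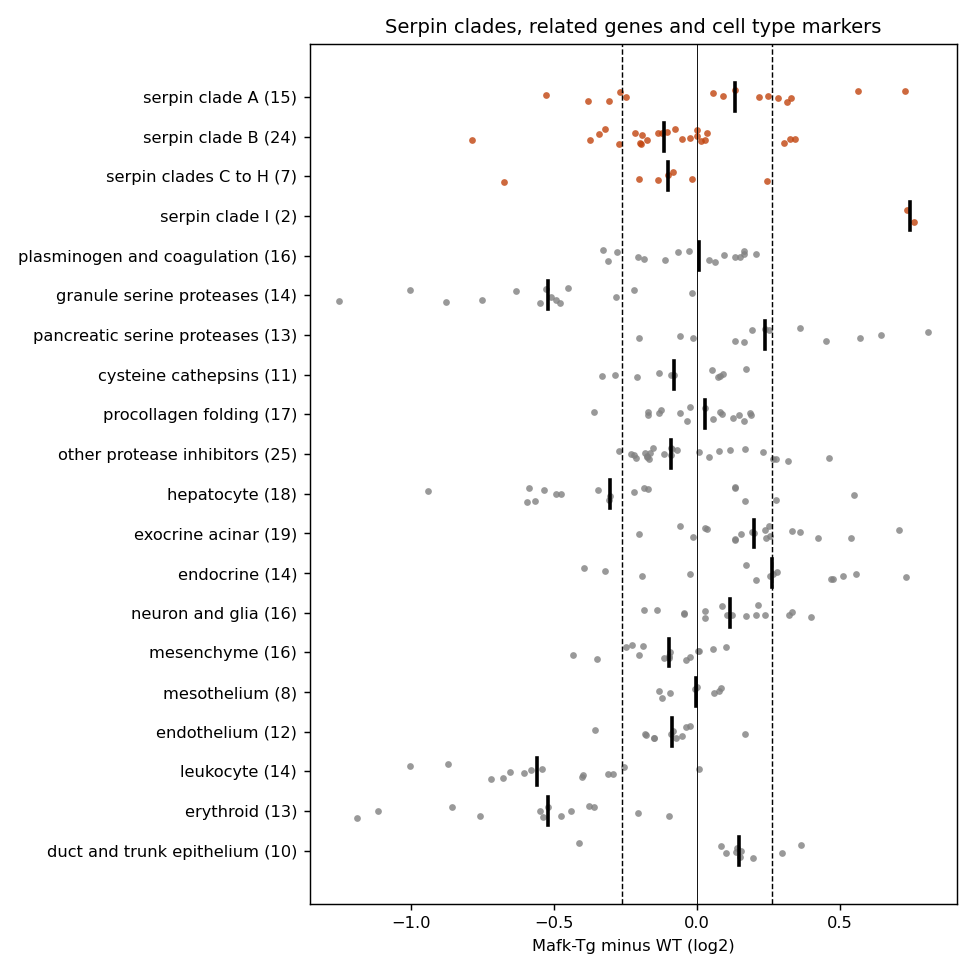
Points give the *Mafk*-Tg minus WT difference (log2) of single genes and bars their median, for the serpin clades, the related gene lists and the cell type markers, with the number of genes in parentheses and dashed lines at 1.2-fold. The bar of clade I, at 0.75, lies to the right of that of every other list shown, and those of the leukocyte, erythroid and granule protease lists lie furthest to the left.

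Proteases and inhibitors outside the family were set beside the serpins. Over all genes 7.96% were higher and 10.5% were lower, and at or above the median level 5.58% were higher and 5.87% were lower. Of 13 pancreatic serine protease genes, 5 were higher and 0 lower, with a median of 0.24. This list shares genes with the acinar list, among them *Prss2*, *Ctrb1* and *Cela3b*, so the lists are not independent. The trypsinogen genes *Try5*, *Try10* and *Prss3* had 0.81, 0.64 and 0.45, and the elastase gene *Cela3a* had 0.57. Of 25 other protease inhibitor genes, 4 were higher and 1 was lower, with a median of -0.09. *Spink1*, which encodes the trypsin inhibitor of the acinar cell, had 8.81 in *Mafk*-Tg and 8.35 in WT, a difference of 0.46. *Spint1* and *Spint2*, which encode epithelial Kunitz inhibitors, had 0.27 and 0.27, *Spink2* had 0.32 at a low level and *Itih4* had -0.27 at a low level. Of 11 cysteine cathepsin genes, 2 were lower, *Ctsc* at -0.33 and *Ctss* at -0.29, and 0 were higher. In the duct and trunk epithelium list 2 of 10 were higher and 1 was lower, with a median of 0.15.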

How the data were processed

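RNA of whole E15.5 pancreata of *Mafk*-Tg and WT embryos was hybridised to Affymetrix MoGene arrays, with 1 array per genotype here. The authors used Affymetrix Expression Console for normalization and summarization, with its settings and version not stated in the paper or labels, and deposited values on the log2 scale, from 0.51 to 14.01. These were used unscaled. The platform's table gave 21789 of the 35556 probe sets 1 gene symbol, 1621 several and 12146 none. A gene value is the mean of the probe sets that name it alone, and each of the 48 serpins had 1. RefSeq (GRCm38.p6) lists 63 protein-coding serpins, of which 47 had a gene value and 5 had only probe sets with several symbols, so 11 were not analysed here.

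No test could be made, and having 2 arrays limits the precision. The members and lists were chosen with earlier results of these data known. By the naming rule, members past 1.2-fold, at or above the median level or in clades E, H and I were given singly, the other members as a group with their range, and up to 4 members of a list in each direction. Outside this rule, *Serpina1d*, *Serpina1f*, *Serpina5*, *Serpina11*, *Serpinb5*, *Serpinb6e*, *Serpinb9*, *Serpinb10*, *Serpinc1*, *Cpa1*, *Clps*, *Ctrl*, *Cela2a*, *Gp2*, *Elavl3*, *Fabp7*, *Tubb3*, *Nefl*, *Prtn3*, *Prss57*, *Tpsab1*, *Plat*, *Col1a1*, *Col1a2*, *F2*, the dim list genes and the chromosome 3 neighbours were picked with their values in view. Of the wider promoter table, the 250 bases before the start were used. Robust SDs were taken in 20 bins of level. Alternatives were equal medians, quantile normalization, a loess with a span of 0.3, the brightest probe set, probe sets with several symbols, a 1.5-fold cutoff and a filter at the median level. Steps were tested on simulated data. These held larger differences than any serpin had and less spread than dim genes show, so they say nothing of calls at dim levels. Tables were made with pandas 2.3.3 and numpy 2.4.6 under Python 3.11.15, the loess with statsmodels 0.14.6 and figures with matplotlib 3.10.9.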

Additional observations from a re-analysis of the deposited data

Results flagged for a closer look

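Of the 5 probe sets that name several serpins, which entered no gene value, 1 was at least 1.2-fold higher in *Mafk*-Tg than in WT. It names *Serpinb9d*, *Serpinb9e*, *Serpinb9f* and *Serpinb9g* and had 4.67 in *Mafk*-Tg and 4.22 in WT, a difference of 0.44 at a dim level. The other 2 probe sets of these genes had 0.10 and 0.00, and the probe set that names *Serpinb9d* alone had -0.78.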

How the results depend on the processing

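No paired analysis was possible because each genotype has 1 array. The main counts were 10 serpins higher and 10 lower. At a cutoff of 1.5-fold 3 were higher and 2 were lower, where 0.697% and 1.27% of all genes were. With only members at or above the median level 2 were higher and 1 was lower, the median of the family was 0.0367 in place of -0.0644, and that of clade B was 0.0134 in place of -0.1137. With probe sets of several symbols added, which gave 53 members, 9 were higher and 12 were lower, the median of clade A was -0.0714 in place of 0.1332, and *Serpina1c*, *Serpina1d* and *Serpinb9d* had 0.01, -0.15 and -0.06. Under equal medians, quantile normalization and loess, 10 to 11 serpins were higher and 8 to 10 lower. *Serpinb1c* fell under the cutoff with quantile normalization, at -0.24, and loess, at -0.23, as did *Serpina3a* with loess, at -0.24, while *Serpina1d* passed it with loess, at 0.27. Of 124 values for counts and medians under the alternatives, 117 moved by less than 1.5 times for counts or 0.1 on the log2 scale for medians. Of 240 values for the 48 members, 237 stayed within 1 robust SD, taken over the genes nearest in level, and 0 of the members past the cutoff changed sign. The brightest probe set changed no serpin, since each has 1. Equal medians shifted every gene by the same small amount. Adding shared probe sets could change only *Serpina1c*, *Serpina1d*, *Serpinb9d* and *Serpinb9e*, and 3 of these moved by more than 1 robust SD. Dim probe sets limit most of the family, and *Serpina6* lies near the top of the scale.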
